A study of Mus musculus with 6 samples.

Results

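The 9 genes described here encode transcription factors that together set and hold the identity of the hepatocyte: Hnf4a, Foxa1, Foxa2, Foxa3, Cebpa, Cebpb, Onecut1, Prox1 and Nr5a2. They were taken by gene name from a count table of 55367 gene names measured in mouse liver, and all 9 passed the filter on low counts that left 18703 genes for testing. The study compared livers of mice homozygous for a disrupted Lmln gene (Lmln-/-, here Lmln-KO) with wild-type (WT) livers, 3 libraries of each, all on the C57BL/6J strain. Lmln encodes a leishmanolysin-like zinc metallopeptidase. The mice were 46 weeks old, except that the mouse of Lmln-KO replicate 3 was 39 weeks old. RNA came from whole liver, so that fewer cells of a type and less RNA per cell cannot be told apart. The sources used here do not say how the allele was made or whether the libraries came from littermates, and they number the replicates without stating that each is a separate animal. P-values therefore measure the spread between these libraries.

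Hepatocyte identity factors work as a mutually reinforcing network: the members bind each other's promoters and enhancers and occupy many liver genes together. FOXA proteins are pioneer factors that open chromatin in the embryonic endoderm, and HNF4A and CEBPA then drive the adult programme of secreted proteins, lipoprotein assembly and gluconeogenesis. The network remains active in adult liver, where hormones such as growth hormone, insulin and glucagon act on it.

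Library totals lay between 17388360 and 22494696 counts. Counts of Lmln itself were 4, 12 and 2 among the Lmln-KO libraries against 79, 80 and 39 among the WT libraries, in replicate order, so every library matched its genotype label. Transcripts of the X-inactivation gene Xist exceeded those of 4 Y-linked genes in Lmln-KO replicate 3 and in WT replicates 2 and 3, while the Y-linked genes (Ddx3y, Eif2s3y, Kdm5d and Uty) were the higher in Lmln-KO replicates 1 and 2 and in WT replicate 1. The labels give no sex, and each set holds both genotypes, so a term for these sets could be fitted beside genotype. Hepatocyte markers were abundant in all 6 libraries: 15 of the 16 listed were tested, and their summed level ranged from 105356 to 114576 CPM (counts scaled to library size) in Lmln-KO and from 115019 to 131694 CPM in WT. Much of that sum was the albumin gene Alb, at 45714.5 to 60833.8 CPM in Lmln-KO and 62500.7 to 74329 CPM in WT. Of the tested markers 6 were higher and 9 lower in Lmln-KO by sign, with a median log2 fold change of -0.06.

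None of the 9 factors passed the threshold between the genotypes after adjustment over all tested genes by edgeR's quasi-likelihood test. The same test called 0 of all 18703 genes at an adjusted p below 0.05 (a background of 0%), Lmln included. For Lmln the log2 fold change was -3.72, with an edgeR p of 0.00023 and an adjusted p of 0.933. DESeq2 gave Lmln an adjusted p of 2.3e-06. The edgeR adjusted p of 0.933 was shared by Lmln, Foxa1, Foxa2, Cebpa, Cebpb and Onecut1, so it does not separate these genes. Since edgeR did not call the disrupted gene itself, 0 calls do not show that levels were equal. Unadjusted p lay below 0.05 for 1 of the 9, Foxa2, beside 871 of all tested genes (4.66%, of which those higher in Lmln-KO made up 1.52% of tested genes and those lower 3.14%). DESeq2 called 24 genes (0.139% of those it adjusted) and 0 of the 9, of which it gave 2, Foxa2 and Onecut1, an unadjusted p below 0.05. With the sex-marker term edgeR called 1 gene (0.00535%), which was not a member. On normalized CPM the genotype groups did not overlap for 2 of the 9, Foxa2 and Cebpa, both higher in Lmln-KO, against 10.3% of all tested genes (4.61% higher and 5.73% lower in Lmln-KO). The log2 fold change, here always Lmln-KO relative to WT, was positive for 6 of the 9 and negative for 3, with a median of 0.07, beside a positive sign for 49.4% of all tested genes and a median of -0.0038. The 95% interval included 0 for 8 of the 9.

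**Figure D1:**
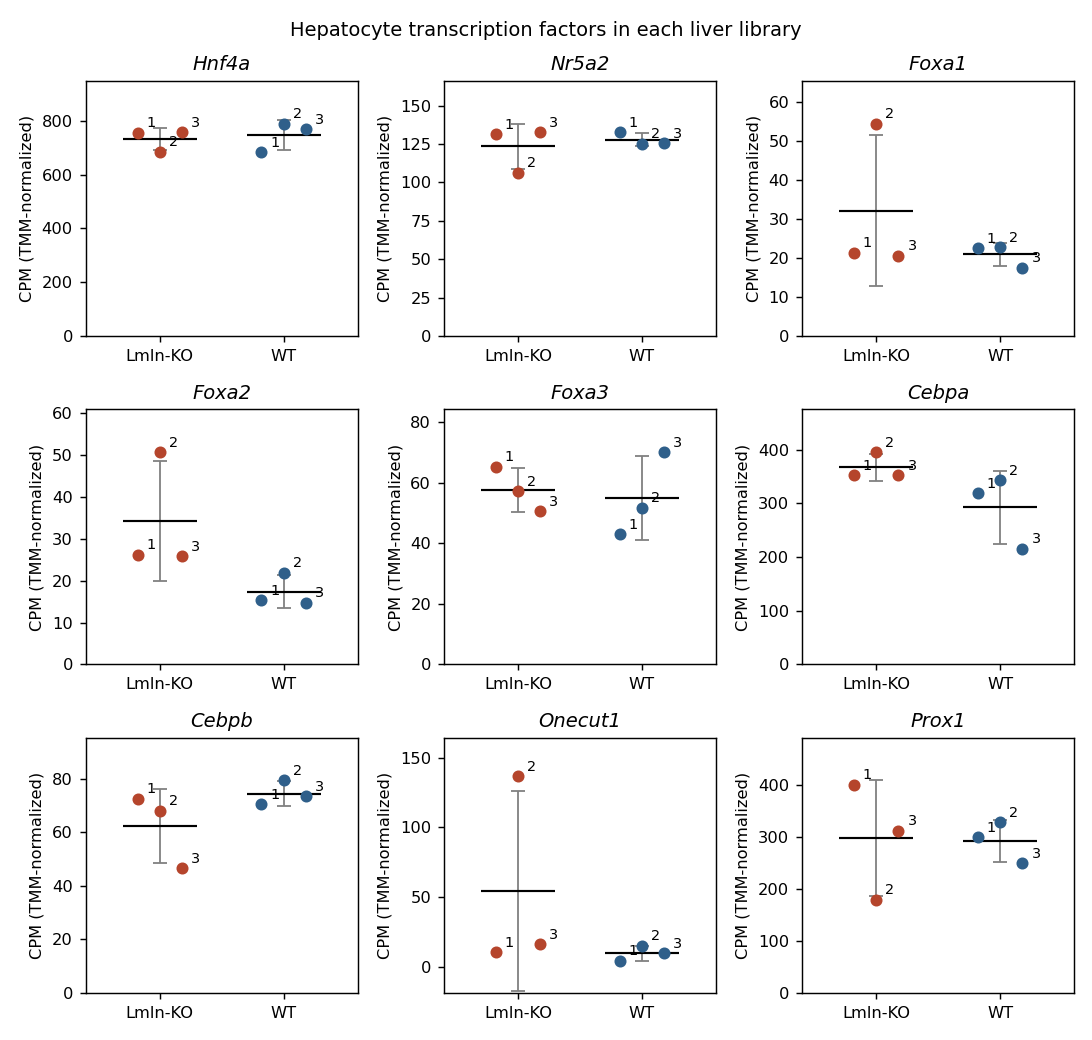
Normalized CPM of the 9 transcription factors (vertical axes) in each of the 3 Lmln-KO and 3 WT liver libraries (points, numbered by replicate), with horizontal lines at the group means and bars of 1 SD. Onecut1, Foxa1 and Foxa2 were highest in Lmln-KO replicate 2 (137, 54.5 and 50.8 CPM), in which Prox1 was lowest (180 CPM).

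Of the members, Onecut1, Foxa1 and Foxa2 stood furthest above the other libraries in Lmln-KO replicate 2, and the largest differences below turn on these 3 genes. Cebpa was also highest in that library, by 0.16 on the log2 CPM scale. For Onecut1, Foxa1 and Foxa2 the 250 bases before a start annotated in RefSeq are printed for that reason. They are RefSeq promoter sequences of build GRCm38.p6, 5′ to 3′ in the direction of the gene. The Onecut1 window is chr9:74861671-74861920 on the plus strand, the Foxa1 window chr12:57546112-57546361 on the minus strand, which precedes a RefSeq start inside the gene span of the count table, and the Foxa2 window, the one for the most upstream of its 3 start sites, chr2:148046970-148047219 on the minus strand. Capitals mark matches to the motifs searched.
Onecut1: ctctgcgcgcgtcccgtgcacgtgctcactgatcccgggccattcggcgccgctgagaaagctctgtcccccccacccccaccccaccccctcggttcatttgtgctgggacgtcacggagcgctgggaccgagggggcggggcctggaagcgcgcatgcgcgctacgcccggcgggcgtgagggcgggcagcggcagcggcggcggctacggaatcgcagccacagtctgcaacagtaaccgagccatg
Foxa1: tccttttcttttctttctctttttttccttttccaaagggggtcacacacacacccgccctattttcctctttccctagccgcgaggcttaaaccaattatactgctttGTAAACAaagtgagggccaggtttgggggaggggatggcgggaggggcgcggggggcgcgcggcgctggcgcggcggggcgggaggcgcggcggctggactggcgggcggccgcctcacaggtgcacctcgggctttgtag
Foxa2: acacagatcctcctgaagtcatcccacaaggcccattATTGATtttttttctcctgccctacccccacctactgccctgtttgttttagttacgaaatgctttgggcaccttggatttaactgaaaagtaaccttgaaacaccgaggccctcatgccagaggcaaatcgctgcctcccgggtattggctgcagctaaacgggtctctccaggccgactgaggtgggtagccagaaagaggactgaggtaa
The capitals in the Foxa1 window are a forkhead motif (TGTTTAC, here on the opposite strand, beginning 141 bases before the start), the type of sequence that FOXA proteins bind. Those in the Foxa2 window are an ONECUT motif (ATTGAT, beginning 213 bases before the start). The Onecut1 window, of 71.6% G and C, held no match. All 9 genes had promoter entries, with 14 windows in all, and each motif was searched on both strands. Besides those shown, the windows of the members held an ONECUT match in Hnf4a and a C/EBP match (TTGCNNAA) in Nr5a2. No window held the STAT motif TTCNNNGAA, the second forkhead form TATTTAC, the HNF4 motif CAAAGTCCA or the NR5A2 motif CAAGGTCA. Among all 32851 promoter windows of that length, 7.02% held the STAT motif, 3.17% the first forkhead form, 2.73% the second, 9.56% the C/EBP motif, 6.72% the ONECUT motif, 1.33% the NR5A2 motif and 0.384% the HNF4 motif. None of the matches overlapped another, and they describe the letters only.

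The nuclear receptors were the most even members across libraries. Hnf4a (chromosome 2, 163506808 to 163572910, plus strand) encodes the orphan nuclear receptor at the centre of the network. It measured 755, 684 and 757 CPM in Lmln-KO replicates 1, 2 and 3 and 682, 790 and 768 CPM in WT replicates 1, 2 and 3. The groups overlapped almost fully, with the lowest library in WT and the next lowest in Lmln-KO. Its log2 fold change was -0.03 (SE 0.131, 95% interval -0.33 to 0.27, edgeR adjusted p = 0.984), and its sign turned to 0.02 with the sex-marker term. The standard deviation of its log2 CPM over the 6 libraries, 0.0895, stood at the 6.94th percentile of all tested genes.

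Nr5a2 (chromosome 1, 136842571 to 136960448, minus strand) encodes liver receptor homolog 1, an activator of bile acid and cholesterol transport genes. It had 132, 106 and 133 CPM in Lmln-KO and 133, 125 and 125 CPM in WT, in replicate order. Lmln-KO replicate 2 lay apart, below all others. A log2 fold change of -0.05 (SE 0.119, 95% interval -0.32 to 0.22, edgeR adjusted p = 0.968) became 0.05 without that library. Its spread stood at the 15.5th percentile of tested genes.

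Among the FOXA genes, Foxa3 led in level and varied least, while Foxa1 and Foxa2 shared a high value in Lmln-KO replicate 2. Foxa3 (chromosome 7, 19013284 to 19023538, minus strand), whose product binds the same forkhead sequence and is the family's most abundant transcript in adult liver, measured 65.3, 57.2 and 50.6 CPM in Lmln-KO and 43.1, 51.8 and 70.2 CPM in WT. The highest and the lowest library were both WT. Its log2 fold change was 0.07 (SE 0.185, 95% interval -0.36 to 0.50, edgeR adjusted p = 0.970), and within the sex-marker sets the difference was 0.50 among the libraries with Y-linked transcripts and -0.25 among those with Xist.

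Foxa2 (chromosome 2, 148042877 to 148046969, minus strand) encodes a pioneer factor tied to insulin and fasting responses of lipid metabolism. It had 26.2, 50.8 and 25.9 CPM in Lmln-KO and 15.3, 21.9 and 14.8 CPM in WT. Every Lmln-KO library was above every WT library, with Lmln-KO replicate 2 well above its fellow replicates. The log2 fold change was 0.98 (SE 0.315, 95% interval 0.22 to 1.74), with an edgeR p of 0.0192 and an adjusted p of 0.933. Without Lmln-KO replicate 2 it was 0.59 (SE 0.190), the sex-marker term gave 0.90 (SE 0.390), and neither passed edgeR's adjustment. Mean log2 CPM differed by 1.25 among the Y-linked libraries and by 0.52 among the Xist libraries, in the same direction. DESeq2 gave 0.99 with an adjusted p of 0.301. Foxa2 is thus the member with the smallest p, and its difference did not pass the adjustment by either tool.

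Foxa1 (chromosome 12, 57540628 to 57546916, minus strand) encodes the closest paralog of FOXA2. Its levels were 21.4, 54.5 and 20.6 CPM in Lmln-KO and 22.5, 22.8 and 17.6 CPM in WT. Apart from the one high library the groups lay within each other's range. Its log2 fold change of 0.62 (SE 0.424, 95% interval -0.44 to 1.67, edgeR adjusted p = 0.933) was 0.0029 (SE 0.154) without Lmln-KO replicate 2. Foxa1 and Foxa2 transcripts shared 3 words of 36 bases, the read length.

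Adjusted for exon length, the summed level of the FOXA genes was 49.5, 65.9 and 42.0 RPKM (counts scaled to exon length and library size) in Lmln-KO and 34.4, 41.5 and 46.0 in WT. The groups overlapped. Foxa3 made up 64.7%, 42.6% and 59.2% of that sum in Lmln-KO and 61.5%, 61.3% and 74.9% in WT, its lowest share being in Lmln-KO replicate 2. Foxa2 made up 22.3%, 32.5% and 26% in Lmln-KO and 18.8%, 22.2% and 13.6% in WT. The Foxa2 share was higher in every Lmln-KO library than in any WT library, though Lmln-KO replicate 1 and WT replicate 2 lay close together. This share is built from the Foxa2 values given above and was not tested.

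The C/EBP genes leaned in opposite directions. Cebpa (chromosome 7, 35119293 to 35121928, plus strand) encodes a bZIP factor that keeps hepatocytes out of the cell cycle and activates gluconeogenic and urea cycle genes. It measured 353, 396 and 352 CPM in Lmln-KO and 319, 344 and 216 CPM in WT. The groups did not overlap, Lmln-KO replicate 2 was the highest library and WT replicate 3 was far the lowest. In log2 the difference was 0.32 (SE 0.182, 95% interval -0.09 to 0.74, edgeR adjusted p = 0.933), and without WT replicate 3 it was 0.15. That library also held the most genes at least 2-fold above every other library, 149 (0.797% of tested genes).

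Cebpb (chromosome 2, 167688915 to 167690418, plus strand) encodes the C/EBP factor that responds to cAMP, cytokines and the acute phase. Its levels were 72.7, 68.1 and 46.7 CPM in Lmln-KO and 70.6, 79.4 and 73.7 CPM in WT. Lmln-KO replicate 3, the 39-week-old mouse, was lowest, and the other 5 libraries lay close together. The log2 fold change of -0.25 (SE 0.165, 95% interval -0.63 to 0.13, edgeR adjusted p = 0.933) was -0.08 without that library and -0.36 with the sex-marker term. Cebpb is also expressed by macrophages. All 13 tested of the 14 macrophage markers were lower in Lmln-KO by sign and 0 were called. Their summed level was 330 to 380 CPM in Lmln-KO and 373 to 471 CPM in WT, lowest in the same Lmln-KO replicate 3. Their part in the Cebpb values was not tested.

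Per exon length, the ratio of Cebpb to Cebpa was 0.361, 0.302 and 0.233 in Lmln-KO and 0.387, 0.405 and 0.598 in WT. It was lower in every Lmln-KO library than in any WT library. The margin between the nearest of them was small, and the lowest and highest ratios came from Lmln-KO replicate 3 and WT replicate 3. This ratio was formed after the levels were seen and was not tested. With 3 libraries against 3, a two-sided exact permutation test could not go below 0.1.

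Onecut1 was the most variable member. It lies on chromosome 9 from 74861921 to 74891781 on the plus strand and encodes HNF6, a cut-homeodomain factor that acts early in hepatocyte and bile duct development and, in adult liver, responds to growth hormone. Its raw counts were 219, 2893 and 380 in Lmln-KO and 75, 285 and 174 in WT, which correspond to 10.5, 137 and 16.2 CPM and to 4.45, 15.2 and 10.02 CPM. Lmln-KO replicate 2 was far above all others, Lmln-KO replicate 3 was just above the highest WT library, and Lmln-KO replicate 1 fell among the WT ones. The log2 fold change of 2.45 had a standard error of 1.28 and a 95% interval from -0.98 to 5.89 (edgeR adjusted p = 0.933). Without Lmln-KO replicate 2 it was 0.43 (SE 0.530). The lowest and the highest libraries, WT replicate 1 and Lmln-KO replicate 2, both belonged to the set with Y-linked transcripts, so that set spanned the whole range.

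That single value was among the most extreme of its library. Onecut1 stood 3.07 above the next library on the log2 CPM scale, which ranked 2nd among all 18703 tested genes for the height of Lmln-KO replicate 2 over the others. Foxa1 (1.25 above the next library) ranked 33rd and Foxa2 (0.95) ranked 59th by the same measure, while Prox1 was lowest there. In all, 54 genes (0.289% of those tested) were at least 2-fold higher in Lmln-KO replicate 2 than in every other library, and the same share was 0.0267% to 0.797% over the other libraries.

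**Figure D2:**
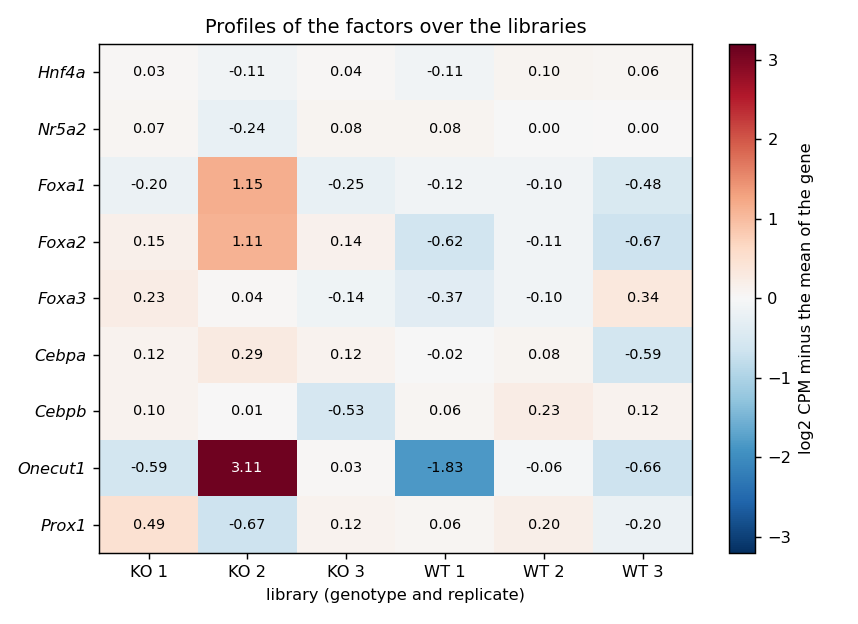
Centred log2 CPM of each factor (rows) in each library (columns), with colour and number giving the difference from the mean of the gene. Onecut1, Foxa1 and Foxa2 are highest in the column of Lmln-KO replicate 2, whereas the rows of Hnf4a and Nr5a2 are nearly flat.

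Of all 11587 candidate genes above a log2 CPM of 1, the profiles closest to Onecut1 over the 6 libraries were Gbp11 and Cish, with a root mean square difference of centred log2 CPM of 0.51 and 0.56. Cish encodes a suppressor of cytokine signalling induced through STAT5, as by growth hormone. It measured 2.93, 63.1 and 13.2 CPM in Lmln-KO and 1.78, 11.7 and 7.31 CPM in WT, with the same library highest and the same library lowest as for Onecut1. Its log2 fold change was 1.92 (SE 1.35, edgeR adjusted p = 0.933), and 0.22 without Lmln-KO replicate 2. Gbp11, which encodes a guanylate-binding protein, had 3.94, 25.3 and 8.70 CPM in Lmln-KO and 2.26, 5.83 and 3.28 CPM in WT, again highest in Lmln-KO replicate 2.

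Further genes of the growth hormone and STAT5 pathway were looked at after the Onecut1 values were seen. Bcl6, a repressor with male-biased expression in mouse liver, had 114, 27.9 and 38.4 CPM in Lmln-KO and 88.3, 26.7 and 41.5 CPM in WT. Lmln-KO replicate 2 thus lay with the Xist libraries for Bcl6 and away from the other libraries with Y-linked transcripts. Cux2, a female-biased repressor related to ONECUT proteins, had 1.06, 0.850 and 101 CPM in Lmln-KO and 1.43, 79.6 and 137 CPM in WT. For Cux2 the same library lay with the other Y-linked ones. Socs2, another STAT5-induced gene, had 8.31, 15.1 and 44.6 CPM in Lmln-KO and 5.11, 32.4 and 33.3 CPM in WT, and Lmln-KO replicate 2 lay between the sets. Among the 13 listed sex-biased regulators, which hold these genes, 4 had a positive and 9 a negative log2 fold change, 0 were called by edgeR, and the smallest p were those of Stat5b, Cish and Stat5a.

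Onecut1, Foxa1 and Foxa2 are also expressed by bile duct cells, and Onecut1 and Foxa2 by the pancreas. Of 12 cholangiocyte markers 10 were tested, and their summed level in Lmln-KO replicate 2 was 1217 CPM, inside the range of the other libraries (1027 to 1569 CPM). Of that sum, 1132 CPM was Clu, which hepatocytes also express. The keratin genes Krt7 and Krt19, which mark bile duct cells, had 0.567 and 0.709 CPM in Lmln-KO replicate 2. Krt7 ranged from 0.576 to 1.23 CPM and Krt19 from 0.230 to 1.53 CPM over the other libraries. Of 19 pancreas, gallbladder and gut markers 3 were tested and 11 had no count in any library, among them Cpa1, Pnlip, Ins1, Ins2 and Cdx2. The tested 3 summed to 13.9, 21.9 and 7.97 CPM in Lmln-KO and to 26.8, 5.83 and 6.51 CPM in WT, so Lmln-KO replicate 2 was next to the highest. Nearly all of the sum in Lmln-KO replicate 2 was the elastase gene Cela1, at 20.3 CPM. Cela1 differed between the sex-marker sets, with 11.96 to 24.9 CPM where Y-linked transcripts were found and 3.85 to 5.03 CPM where Xist was. Its level in Lmln-KO replicate 2 lay inside the range of the Y-linked set, whose highest library was WT replicate 1. The part of these cells in the height of that library was not tested. For the remaining cell types, summed marker levels were 412 to 594 CPM in Lmln-KO and 501 to 663 CPM in WT for stellate cells (12 of 12 tested), and 4.65 to 6.87 CPM and 7.66 to 43.8 CPM for lymphocytes (5 of 13 tested). They were 1.75 to 4.996 CPM and 3.32 to 4.28 CPM for neutrophils (2 of 12 tested), and 109 to 276 CPM and 81.1 to 228 CPM for erythroid cells (6 of 8 tested), highest in Lmln-KO replicate 2. A large part of the erythroid sum was Alas2, which differed between the sex-marker sets. Alas2 had 97.1 to 125 CPM in the libraries with Y-linked transcripts and 10.9 to 14.7 CPM in those with Xist. Hbb-bs, another large part, had 103 CPM in Lmln-KO replicate 2 and 45.1 to 89.0 CPM in the others.

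Prox1 was the member with the largest opposite swing. It lies on chromosome 1 from 190118035 to 190170714 on the minus strand and encodes a homeodomain corepressor that binds HNF4A and NR5A2 and also marks lymphatic endothelium. Its levels were 401, 180 and 312 CPM in Lmln-KO and 300, 329 and 250 CPM in WT. Both the highest and the lowest library were Lmln-KO, and the WT libraries lay between them. The log2 fold change was 0.02 (SE 0.280, 95% interval -0.64 to 0.68, edgeR adjusted p = 0.993). It was 0.29 without Lmln-KO replicate 2 and -0.25 without Lmln-KO replicate 1, so its sign rests on single libraries. The antisense gene Prox1os, which shares 133 exon bases with it, had 213, 80 and 167 counts in Lmln-KO and 112, 123 and 116 in WT, with the same libraries highest and lowest. Endothelial and lymphatic markers summed to 512 to 623 CPM in Lmln-KO and 565 to 583 CPM in WT, and 540 CPM in Lmln-KO replicate 2.

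**Figure D3:**
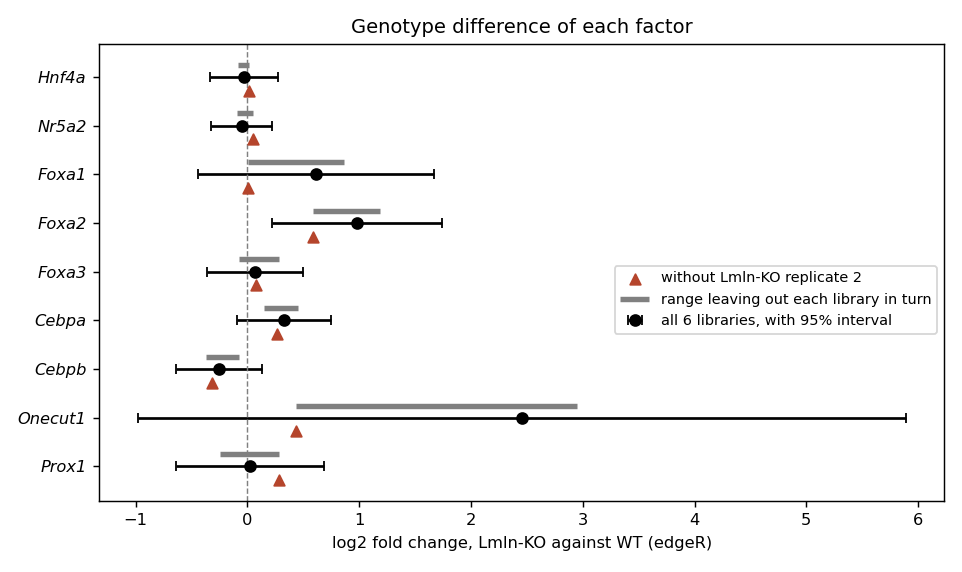
Log2 fold change of each factor, Lmln-KO relative to WT, from edgeR (points) with its 95% interval (bars). The interval for Foxa2 runs from 0.22 to 1.74 and excludes 0, and that for Onecut1 is the widest, from -0.98 to 5.89.

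Length-adjusted levels placed the factors over a broad range. As the mean and SD over the 6 libraries, Hnf4a was highest at 153 ± 9.37 RPKM, followed by Cebpa at 125 ± 23.2 RPKM, Cebpb at 45.6 ± 7.53, Prox1 at 35.2 ± 8.95, Foxa3 at 27.7 ± 4.91 and Nr5a2 at 21.3 ± 1.71. Foxa2 (10.9 ± 5.57 RPKM), Foxa1 (7.99 ± 4.15) and Onecut1 (7.82 ± 12.5, median 3.13) were the lowest. Cebpa exceeded Cebpb in all 6 libraries. Every other pair of neighbours kept its order in 5 of 6 libraries, except Prox1 and Foxa3, which did so in 4. The order of Hnf4a and Cebpa turned in Lmln-KO replicate 2, and so did the order of Foxa1 and Onecut1.

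**Figure D4:**
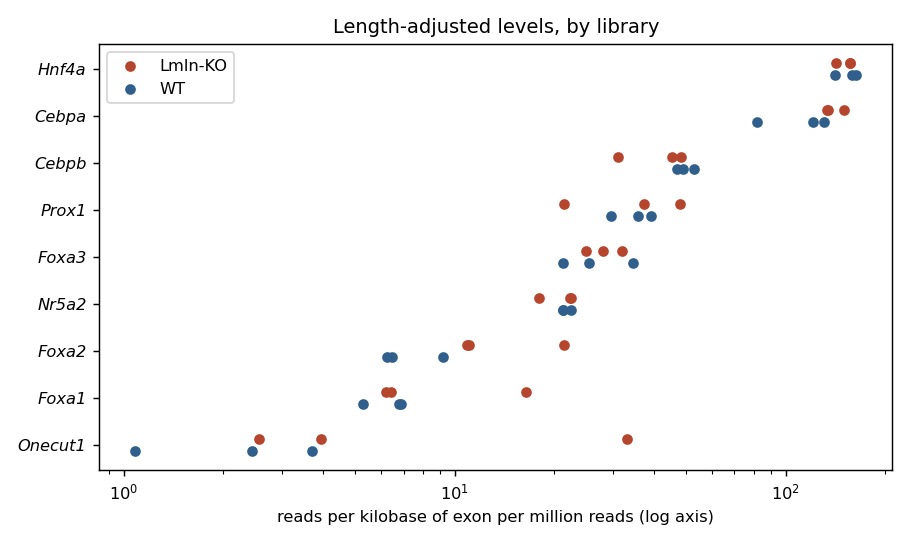
RPKM, counts scaled to exon length and library size (horizontal log axis), of the 9 factors in each library (points), ordered by their mean. Hnf4a and Cebpa lie highest, and Onecut1 spans the widest range, from 1.08 to 33.2 RPKM.

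Some of these levels are limited by gene models that overlap. Of the 4113 exon bases of Onecut1, 2171 (52.8%) are shared with the predicted gene Gm20649 on the same strand, which had 0 counts in every library. Per unshared base the mean level of Onecut1 was 16.6 RPKM and its median 6.63 RPKM, above the mean of Foxa2 and beside the median of Foxa1. Cebpb shares 312 exon bases (20.7%) with Tmem189, and its mean per unshared base was 57.5 RPKM. The other members shared at most 1.93% of their exon bases.

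The nearest profiles of the other members, named by likeness over the 6 libraries alone, were Morf4l1 and Cpne2 for Hnf4a, Pip5k1c and Ckap4 for Nr5a2, Jph1 and Rad18 for Foxa1, Tmem120b and Plcxd2 for Foxa2, and Fam173a and Ap4s1 for Foxa3. For Cebpa they were Pik3r1 and Hsd17b4, for Cebpb Haghl and BC005624, and for Prox1 Klhl25 and Tmem198b. The root mean square differences ranged from 0.0151 (Pip5k1c to Nr5a2) to 0.56 (Cish to Onecut1).

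A wider set of 36 transcription regulators of liver, all tested, gave 26 positive and 10 negative log2 fold changes with a median of 0.07, beside 49.4% positive over all tested genes, and edgeR called 0. The median was 0.13 without Lmln-KO replicate 2. Unadjusted p lay below 0.05 for 4 of the 36, beside 4.66% of all tested genes. Of these, 2 were higher in Lmln-KO (Xbp1 and Gata4) and 2 lower (Nr1i2 and Klf15). Xbp1, the factor of secretory capacity, had 194, 237 and 157 CPM in Lmln-KO and 146, 139 and 137 CPM in WT. The groups did not overlap (log2 fold change 0.48, SE 0.156, edgeR adjusted p = 0.933), and without Lmln-KO replicate 2 the log2 fold change was 0.32. Gata4, a partner of the FOXA proteins, had 26, 36.3 and 24.4 CPM in Lmln-KO and 23.4, 21 and 18.9 CPM in WT. It too was higher in every Lmln-KO library and highest in replicate 2 (log2 fold change 0.45, SE 0.167, or 0.26 without that library). Nr1i2, the xenobiotic receptor PXR, was lower in every Lmln-KO library (log2 fold change -0.30, SE 0.112, or -0.19 without WT replicate 3). So was Klf15 (log2 fold change -0.50, SE 0.198, or -0.24 without WT replicate 3). Onecut2, the paralog of Onecut1, measured 359, 380 and 410 CPM in Lmln-KO and 286, 408 and 252 CPM in WT, and Lmln-KO replicate 2 did not stand out for it.

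**Figure D5:**
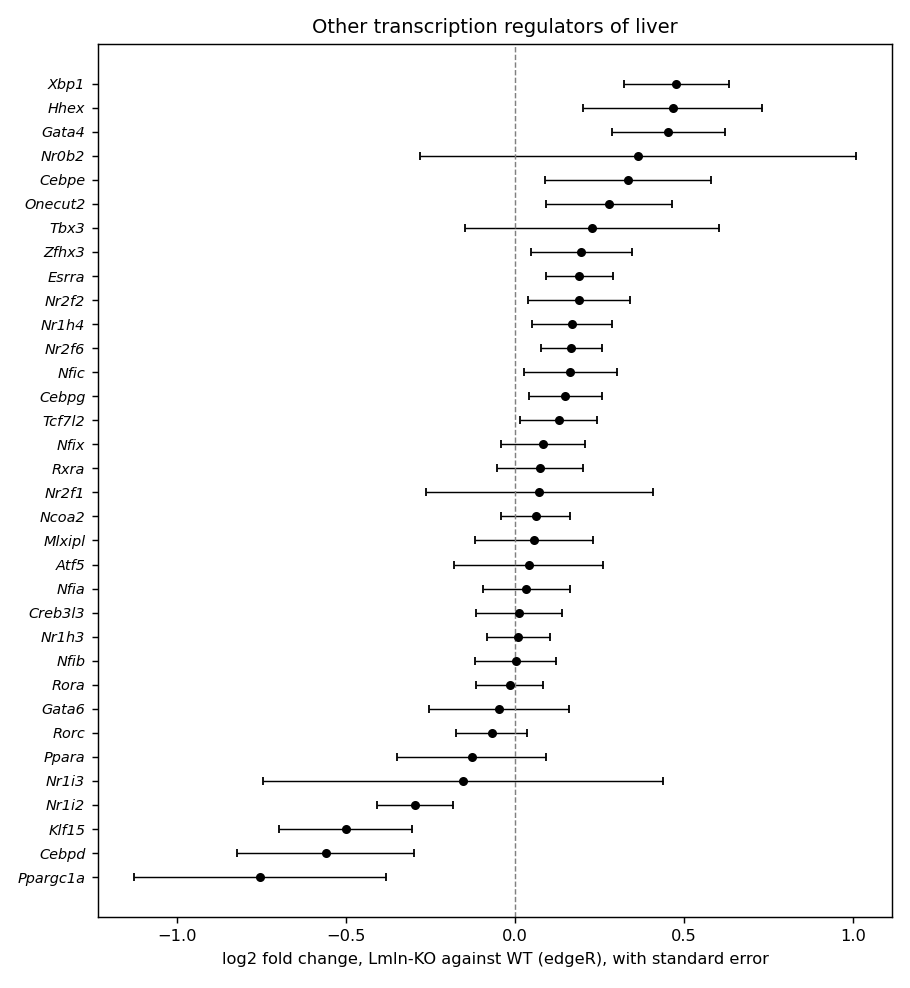
Log2 fold changes (points) with standard errors (bars) of 34 genes of the wider set of liver transcription regulators, Lmln-KO relative to WT, by edgeR. Positive values predominate (25 of 34), and Xbp1 (0.48) and Gata4 (0.45) are the positive ones with the smallest p.

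Textbook target genes of the factors were read as lists, and edgeR called 0 genes in each. Of 22 HNF4A targets 7 were higher and 15 lower in Lmln-KO by sign, with a median log2 fold change of -0.07. Of the 15 tested FOXA targets 3 were higher and 12 lower (median -0.11), and of 21 C/EBP targets 12 were higher and 9 lower (median 0.13, or -0.05 with the sex-marker term). Without Lmln-KO replicate 1 the C/EBP median was -0.34, and without each of the others it was 0.036 to 0.37. That library was the highest for the acute phase targets in the list, such as Saa1 (788 CPM, against 7.33 to 38.2 in the others) and Hp (3370 CPM, against 1143 to 1715). Of the 17 tested NR5A2 targets 8 were higher and 9 lower (median -0.10), and of the 15 tested ONECUT1 and PROX1 targets 5 were higher and 10 lower (median -0.05). Without WT replicate 3 the medians turned to 0.018 for HNF4A, 0.011 for NR5A2 and 0.028 for ONECUT1 and PROX1 targets, and the last was also positive without WT replicate 2 (0.016) and with the sex-marker term (0.042). Leaving out Lmln-KO replicate 1 or WT replicate 2 brought the NR5A2 median to -0.0062 or -0.012. The FOXA median stayed negative without each library in turn (-0.28 to -0.12). The lists share genes, so these counts are not independent of each other.

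The smallest p in several target lists belonged to the gluconeogenic genes that FOXA, C/EBP and HNF4A activate together. Pck1, which encodes the rate-limiting cytosolic enzyme PEPCK, had 2199, 1471 and 2414 CPM in Lmln-KO and 2540, 3134 and 5454 CPM in WT, a log2 fold change of -0.87 (SE 0.319, edgeR adjusted p = 0.933). WT replicate 3 was far the highest, and without it the log2 fold change was -0.48. G6pc, the catalytic subunit of glucose-6-phosphatase, was lower in every Lmln-KO library (log2 fold change -1.05, SE 0.162, edgeR adjusted p = 0.933). DESeq2 gave it an adjusted p of 2.3e-06. Foxa2 and Cebpa, whose products bind these genes, were higher by sign in the same libraries, but neither passed edgeR's adjustment. A link between their levels and those of Pck1 and G6pc was not tested. NR5A2 targets were led by the sterol transporter genes Abcg8 (-0.84, SE 0.332) and Abcg5 (-0.90, SE 0.359), both lower in every Lmln-KO library, beside -0.05 for Nr5a2 itself. Abcg8 had 119, 130.2 and 134 CPM in Lmln-KO and 168, 156 and 363 CPM in WT, and Abcg5 had 73.3, 86.6 and 107 CPM in Lmln-KO and 119, 116 and 262 CPM in WT. WT replicate 3 stood far above the rest for both, and without it the log2 fold changes were -0.35 for Abcg8 and -0.40 for Abcg5.

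Genes induced within minutes by cAMP and other stimuli, the setting in which Cebpb responds, had a median log2 fold change of -0.50, with 21 of the 23 tested negative, where 49.4% of all tested genes were positive. Unadjusted p lay below 0.05 for 7, all lower in Lmln-KO, beside 3.14% of all tested genes in that direction. DESeq2, which called 0.139% of all genes, called Btg2 (-1.31, SE 0.188) and Sik1 (-1.04, SE 0.183). This list was chosen with earlier results of these data known, so its counts are not an independent test. Of 19 fetal liver and progenitor genes, which hepatocytes re-express when the identity network weakens, 12 passed the filter on low counts and 0 were called. Among them 4 were higher and 8 lower by sign, with a median log2 fold change of -0.24 (-0.14 with the sex-marker term). The 3 smallest p were those of Afp, Prom1 and Epcam. Prom1 (log2 fold change -1.87, SE 1.38) and Epcam (-0.34, SE 0.282) were lower by sign, with overlapping groups. Prom1 had 1.07 to 1.46 CPM in the libraries with Y-linked transcripts and 8.78 to 26.9 CPM in those with Xist. Afp, the fetal albumin-like protein, had 6.92, 6.75 and 11 CPM in Lmln-KO and 3.86, 9.31 and 3.28 CPM in WT, with overlapping groups (log2 fold change 0.58, SE 0.427, from 0.32 to 1.203 with each library left out in turn).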

How the data were processed

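Whole-liver RNA of 3 Lmln-KO and 3 WT libraries was ribosomal RNA depleted and sequenced as pairs of 36-base reads from a directional kit (labels' protocols). Raw read counts per gene name were deposited. Per the file headers, the authors counted them with featureCounts 2.0.1 over exons of Ensembl release 102 (GRCm38). Subread 2.0.2 and edgeR 3.36.0 are named in the submitters' processing notes. The header's command gives no option for strand, for read pairs or for reads overlapping several genes, so antisense partners cannot be told apart and reads in exons shared by 2 genes are lost. No source used here names the aligner.

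Of 55367 gene names, 21412 had no count, and 18703 passed filterByExpr at a minimum count of 10 (99.8% of counts). The genotype fit used edgeR 4.0.16 under R 4.3.3 (TMM scaling, robust quasi-likelihood fit, Benjamini-Hochberg at 0.05 over all tested genes), with the standard error as the absolute log2 fold change over the square root of F. CPM are TMM-normalized, and log2 CPM used a prior count of 2. RPKM divide by the deposited exon length. Same-group libraries differed beyond counting error (the smallest chi-square per degree of freedom was 31.0). DESeq2 1.42.0, limma-voom (limma 3.58.1), other scalings and filters, a replicate block, a sex-marker term and leaving out each library were the alternatives. The fits were tested on simulated data.

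The members and the 18 gene lists were chosen with earlier results of these data known. Named genes are the members, Lmln, the sex markers, up to 3 genes of smallest p in a list, and the 2 nearest profiles of each member among officially named genes above a log2 CPM of 1. Other genes were named after their values were seen, among them Bcl6, Cux2, Socs2, Onecut2, Clu, the keratins and overlapping genes. Sequences and coordinates are of GRCm38. Protein sequences were not used here, and 2 genes of the wider set are not reported singly here.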

Additional observations from a re-analysis of the deposited data

How the results depend on the processing

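Under all 15 alternatives 0 of the 9 factors passed the threshold. Over all tested genes edgeR called 0, DESeq2 24, edgeR without a filter on low counts 3, with the replicate block 1 and with the sex-marker term 1, and leaving out each library gave 0 to 3. Over the listed genes the count was 0, and 3 by DESeq2 and 2 without the filter. Signs turned for Prox1 (-0.00075 with upper-quartile scaling, -0.042 by limma-voom and -0.037 with the replicate block) and for Hnf4a (0.018 with the sex-marker term). Leaving out each library moved the log2 fold change of Prox1 from -0.25 to 0.29, of Hnf4a from -0.087 to 0.018, of Nr5a2 from -0.10 to 0.048, of Foxa3 from -0.078 to 0.28, of Foxa1 from 0.0029 to 0.86, of Foxa2 from 0.59 to 1.18, of Cebpa from 0.15 to 0.45, of Cebpb from -0.37 to -0.08 and of Onecut1 from 0.43 to 2.95. Onecut1 was 1.67 by limma-voom and 1.73 with the replicate block. Same-numbered libraries deviated together for numbers 1 and 3 (correlations 0.465 and 0.405) but not for number 2 (-0.311), and 2 of 6 libraries correlated best with their own number, so the numbers were not taken to pair the libraries. The libraries numbered 1 were both in the Y-linked set and those numbered 3 both in the Xist set, while those numbered 2 were in different sets. For numbers 1 and 3, shared number and shared set therefore cannot be told apart by these correlations. The pair numbered 2, which shares a number but not a set, was the one with the negative correlation. The part of the sets in these correlations was not tested. With the replicate block Foxa2 was 0.93 with an edgeR adjusted p of 0.230. At 3 libraries a group, the intervals of Foxa1, Foxa2 and Onecut1 do not exclude a 2-fold difference.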
